A study of Mus musculus with 6 samples.

Results

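The 9 genes that give a neuron its transmitter identity (Chat, Slc18a3, Slc5a7, Ache, Slc17a6, Gad1, Gad2, Slc32a1 and Slc6a5) were followed in fluorescent cells sorted from the mouse embryonic hindbrain. They were taken as every probe set that the platform's table assigns to exactly 1 of these symbols, which gave 16 of 45037 probe sets and 9 of 18193 genes. Where a gene had several probe sets, the one whose mean across all 6 arrays was highest stood for it, irrespective of genotype. Values are log2 of the deposited intensity and are given for arrays 1, 2 and 3 of a genotype in that order. A difference is swap minus control on that scale.

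Cells were collected at embryonic stage E10.5 from dissected hindbrains, with whole litters pooled. In both groups the reporter tauGFP, a green fluorescent protein joined to the microtubule-binding protein tau, followed an IRES at the Hoxb1 locus, and sorting by its fluorescence enriched for cells with an active locus or with reporter left from earlier activity. The control group (n = 3 arrays, Hoxb1-IRES-tauGFP) made the normal Hox-B1 protein, and the swap group (n = 3 arrays) made a paralogous Hox protein from that locus instead. The sources used here do not say whether the allele was carried in 1 or both copies. The labelled tissue, rhombomere 4, is the hindbrain segment that gives rise to the facial branchiomotor neurons, and the comparison asks whether its transcripts differ with the Hox protein made there.

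A neuron is called by the transmitter it releases, and each transmitter needs its own small set of proteins. Acetylcholine, the transmitter of motor neurons, is made by choline acetyltransferase (Chat), packed into vesicles by the transporter Slc18a3, broken down outside the cell by acetylcholinesterase (Ache), and remade from choline that Slc5a7 brings back. Glutamate is loaded into vesicles by Slc17a6. GABA is made from glutamate by the decarboxylases Gad1 and Gad2, glycine is recovered by the transporter Slc6a5, and both inhibitory transmitters are loaded into vesicles by Slc32a1. In the hindbrain motor neurons are cholinergic, and the interneurons around them are glutamatergic, GABAergic or glycinergic.

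The median level, taken over the means of all probe sets across the 6 arrays, was 6.83. By their highest-mean probe sets, the glutamate transporter Slc17a6 and the GABA-synthesis gene Gad1 stood above it in every array of both genotypes. Chat, Slc18a3 and Slc5a7 stood below it in every array. The second probe set of Gad1 (4.75 to 5.98) was also below it in every array, and that of Slc17a6 (6.69 to 8.05) in swap array 2. The level of a gene thus depends on the probe set read. No transmitter gene passed the test between the genotypes: limma called 0 of the 9 genes at an adjusted p under 0.05, against 0.00% of 18193 genes and 0.00% of 45037 probe sets, and 0 of the 9 had an unadjusted p under 0.05, against 3.63% of all genes. In 0 of the 9 genes did the 3 swap arrays lie apart from the 3 control arrays, which was so for 8.85% of all genes. Of the differences 6 were above 0 and 3 below it, with a median of 0.19, beside a median of 0.01 over all genes. In pooled cells a smaller number of neurons of a kind and less RNA in each of them cannot be told apart.

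**Figure D1:**
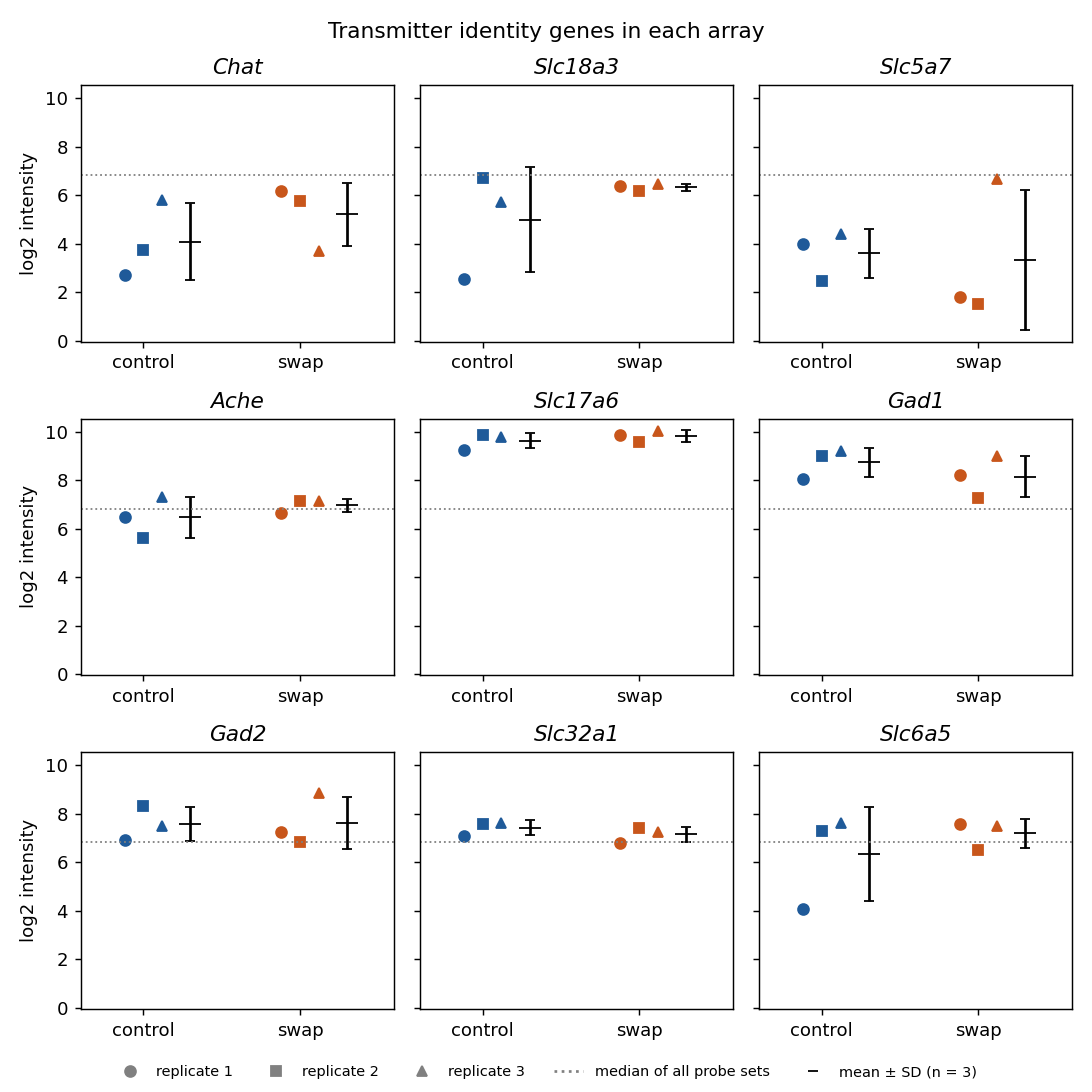
Log2 intensity of the 9 genes in each array, by genotype (blue, control; orange, swap; marker shape, replicate number), with the mean and SD (n = 3 each) in black and the median level of all probe sets, 6.83, as a dotted line. Slc17a6 lies far above that line in all 6 arrays, Chat, Slc18a3 and Slc5a7 lie below it, and the genotypes overlap in all 9 genes.

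Slc17a6, whose protein defines most glutamatergic neurons of the hindbrain, was the most closely measured of the 9 genes. Its log2 intensity was 9.26, 9.85 and 9.80 across the control arrays and 9.88, 9.57 and 10.03 across the swap arrays. Control array 1 was the lowest and swap array 3 the highest, and the remaining arrays of both genotypes were interleaved. The control mean was 9.64 ± 0.33 and the swap mean 9.83 ± 0.23 (SD, n = 3 each), a difference of 0.19 (SE 0.27, 95% interval -0.49 to 0.87, adjusted p = 1.00 in limma). The interval of this highest-mean probe set leaves out any change of more than 1.83-fold. The second probe set of Slc17a6, at a lower level, gave a difference of 0.07 (SE 0.42), so both pointed the same way.

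The position of the genes and the sequence before their start sites were read from RefSeq on the build GRCm38.p6, where all 9 were found, with 11 start windows among them. A window runs from 250 bases before a start to 50 bases after it. Because the groups differ in a Hox protein, the windows were searched on both strands for TGATNNAT, the composite motif that Hox proteins are known to bind together with Pbx partners. It was present for 2 of the 9 genes (22.2%), Slc17a6 and Slc6a5, against 10.1% of 27025 genes with a window. The stretches of 60 bases around it are shown because they are the places where the motif occurs, with the matched bases in capitals. In Slc17a6 the match lies 85 bases before the more downstream of its start sites, within the stretch chr7:51624526-51624585 on the + strand. In Slc6a5 it lies 93 bases before a start, within the stretch chr7:49910181-49910240 on the + strand. There it consists of 2 overlapping matches, 1 on each strand.
Slc17a6: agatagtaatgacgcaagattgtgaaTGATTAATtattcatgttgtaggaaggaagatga
Slc6a5: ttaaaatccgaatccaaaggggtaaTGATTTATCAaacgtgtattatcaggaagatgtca
The Slc17a6 match overlaps a TAATTA, a core often bound by homeodomain proteins, which 1 of the 9 genes (11.1%) and 6.12% of all genes hold. Such a match is a run of letters and not a shown binding site.

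Gad1, which encodes the larger of the GABA-making decarboxylases, had the lower mean in the swap arrays but varied as much within each genotype as between them. It read 8.07, 8.98 and 9.19 across the control arrays and 8.21, 7.26 and 8.98 across the swap arrays. Swap array 2 was the lowest of the 6, and swap array 3 was level with control array 2. The means were 8.75 ± 0.60 and 8.15 ± 0.86 (SD, n = 3 each), and the difference was -0.60 (SE 0.54, 95% interval -1.93 to 0.74, adjusted p = 1.00 in limma). Without swap array 2 it was -0.15, and without swap array 3 it was -1.01. A second Gad1 probe set at a lower level gave -0.46 (SE 0.32).

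Gad2, the other decarboxylase, had nearly equal means in the control and swap arrays. It read 6.93, 8.32 and 7.51 across the control arrays and 7.23, 6.82 and 8.85 across the swap arrays, where the third array was the highest of all 6. Linear intensities in the swap group ran from 113 to 461, a 4.08-fold range among replicates of 1 genotype. The difference was 0.05 (SE 0.65, 95% interval -1.55 to 1.64, adjusted p = 1.00 in limma). Its direction is not set by these arrays: it was -0.56 without swap array 3, and the gene's second probe set gave -0.49 (SE 1.06).

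Slc32a1, the vesicular transporter that GABAergic and glycinergic neurons share, was read by 4 probe sets. Its highest one read 7.10, 7.57 and 7.64 across the control arrays and 6.80, 7.43 and 7.23 across the swap arrays. The range was narrow and near the median level, with swap array 1 just below it. The means were 7.43 ± 0.30 and 7.15 ± 0.32 (SD, n = 3 each), and the difference was -0.28 (SE 0.29, 95% interval -0.99 to 0.43, adjusted p = 1.00 in limma). A change of more than 1.98-fold lies outside that interval. The other probe sets gave 0.41 (SE 0.50), -0.94 (SE 0.61) and -1.61 (SE 0.73), so 3 of the 4 were lower in the swap arrays and 1 was higher. The last of them, at a level near the bottom of the array, had the smallest unadjusted p of all 16 probe sets (0.0727 in limma).

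Slc6a5, the glycine transporter that marks glycinergic neurons, read 4.09, 7.27 and 7.62 across the control arrays and 7.60, 6.52 and 7.48 across the swap arrays. Control array 1 lay far below the rest, and the other 5 arrays spanned 6.52 to 7.62. The difference of 0.87 (SE 1.00, 95% interval -1.59 to 3.33, adjusted p = 1.00 in limma) rests on that array, and without it the difference was -0.25. A second probe set read 5.87, 6.70 and 7.75 across the control arrays and 7.00, 5.02 and 7.31 across the swap arrays, with a difference of -0.33 (SE 0.77). Both probe sets were lowest within the genotypes in control array 1 and swap array 2.

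The inhibitory and excitatory genes were also set against each other inside each array, a comparison chosen after the values were seen and given as a description. Log2 Gad1 minus log2 Slc17a6 was -1.19, -0.87 and -0.60 across the control arrays and -1.68, -2.31 and -1.05 across the swap arrays. Swap array 3 lay within the control range, and the other swap arrays lay below it. The control mean was -0.89 ± 0.30 and the swap mean -1.68 ± 0.63 (SD, n = 3 each). Gad2 minus Slc17a6 differed by -0.14 and Slc32a1 minus Slc17a6 by -0.47 between the genotypes, and in all 3 pairs the genotypes overlapped.

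The cholinergic genes Chat and Slc18a3 share 1 locus. Slc18a3 (chromosome 14, 32462437 to 32464850) lies wholly inside Chat (32408203 to 32465909) on the same - strand, and their annotated starts are 1059 bases apart. Whether the probe set of each gene reads only its own transcript could not be tested here, so their values may not be separate. Each was read by 1 probe set, and both stood below the median level of all probe sets, 6.83, in all 6 arrays. The table has no detection calls, so a low value here is not a call of presence or absence. Chat read 2.72, 3.74 and 5.80 across the control arrays and 6.16, 5.74 and 3.70 across the swap arrays. Slc18a3 read 2.55, 6.69 and 5.73 across the control arrays and 6.38, 6.15 and 6.44 across the swap arrays.

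Within each genotype these neighbours did not keep the same order of arrays. Control array 1 was the lowest for both, but Chat was highest in control array 3 and Slc18a3 in control array 2, and Chat was lowest in swap array 3 where Slc18a3 was highest. Chat differed by 1.12 (SE 1.00, 95% interval -1.37 to 3.60) and Slc18a3 by 1.33 (SE 1.06, 95% interval -1.29 to 3.96), each with an adjusted p of 1.00 in limma. Without control array 1 the differences were 0.43 and 0.11. Intervals this wide leave changes of 12.1-fold for Chat and 15.6-fold for Slc18a3 within reach.

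Slc5a7, the choline transporter of cholinergic terminals, had a mean level at percentile 6.11 of all probe sets. It read 3.98, 2.46 and 4.39 across the control arrays and 1.81, 1.51 and 6.67 across the swap arrays. Swap array 3 was the highest of the 6 and the other swap arrays the lowest, at levels that are not shown to lie above background. The difference was -0.28 (SE 1.49, 95% interval -3.95 to 3.40, adjusted p = 1.00 in limma), and it was 0.63 without swap array 2 and -1.94 without swap array 3.

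Ache, which ends the action of acetylcholine and is also made by cells that are not cholinergic, red blood cells among them, stood near the median level. Its values were 6.48, 5.63 and 7.31 across the control arrays and 6.66, 7.12 and 7.13 across the swap arrays. Control array 3 was the highest and control array 2 the lowest, with the swap arrays between them. The means were 6.47 ± 0.84 and 6.97 ± 0.27 (SD, n = 3 each), a difference of 0.50 (SE 0.47, 95% interval -0.66 to 1.65, adjusted p = 1.00 in limma) that was 0.08 without control array 2. The erythroid marker list had 10 of 12 genes measured, with a log2 summed intensity of 14.37 to 15.05 across control arrays and 13.94 to 14.96 across swap arrays. Its sum was highest in control array 2. All 10 markers had lower means in the swap arrays, against 8933 of all 18193 genes, and 0 of the 10 passed the test. The median difference of the 10 was -0.45, and it was 0.06 without swap array 1, where the sum was lowest. The part of such cells in the Ache values was not tested.

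**Figure D2:**
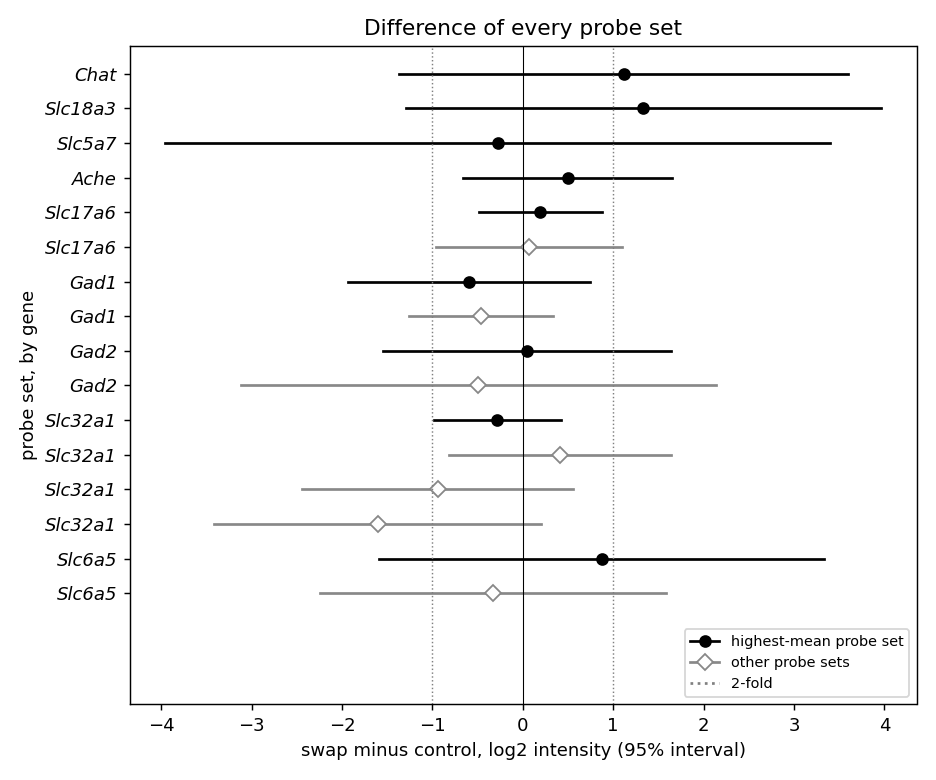
Swap minus control difference in log2 intensity for all 16 probe sets, grouped by gene, with 95% intervals from limma; filled circles are the highest-mean probe set of each gene, open diamonds the others, and dotted lines mark 2-fold. All 16 intervals cover 0. Those of the highest-mean probe sets of Slc17a6 (-0.49 to 0.87) and Slc32a1 (-0.99 to 0.43) stay within 2-fold, and those of their other probe sets do not.

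How small a change could have been seen differed from gene to gene. The 95% interval lay within 2-fold for 2 of the 9 genes, Slc17a6 and Slc32a1, against 43.4% of all genes and 68.1% of the genes at or above the median level. This held for their highest-mean probe sets only. The other probe set of Slc17a6 had an interval of -0.96 to 1.09. Those of Slc32a1 had -0.82 to 1.64, -2.44 to 0.56 and -3.42 to 0.20. Of the 9 genes 4 stood at or above the median level, Slc17a6, Slc32a1, Gad1 and Gad2. For Gad1 the interval leaves changes of up to 3.81-fold possible, for Gad2 3.12-fold, for Ache 3.14-fold and for Slc6a5 10.1-fold. With all probe sets split into 10 classes by level, 7 of the 9 genes had a residual SD above the median of their class, the exceptions being Ache and Slc32a1. The residual SD of Gad1 was 0.741 against a class median of 0.303, and that of Gad2 was 0.904 against 0.375.

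Probe sets of 1 gene did not always point the same way. Of the 9 genes 5 had several, and in 3 of those, Gad2, Slc32a1 and Slc6a5, differences of both signs occurred. Slc17a6 had both of its probe sets higher in the swap arrays, and Gad1 had both of them lower. Over the 16 probe sets 8 were higher and 8 lower, and 0 had arrays that did not overlap, against 8.83% of all probe sets.

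**Figure D3:**
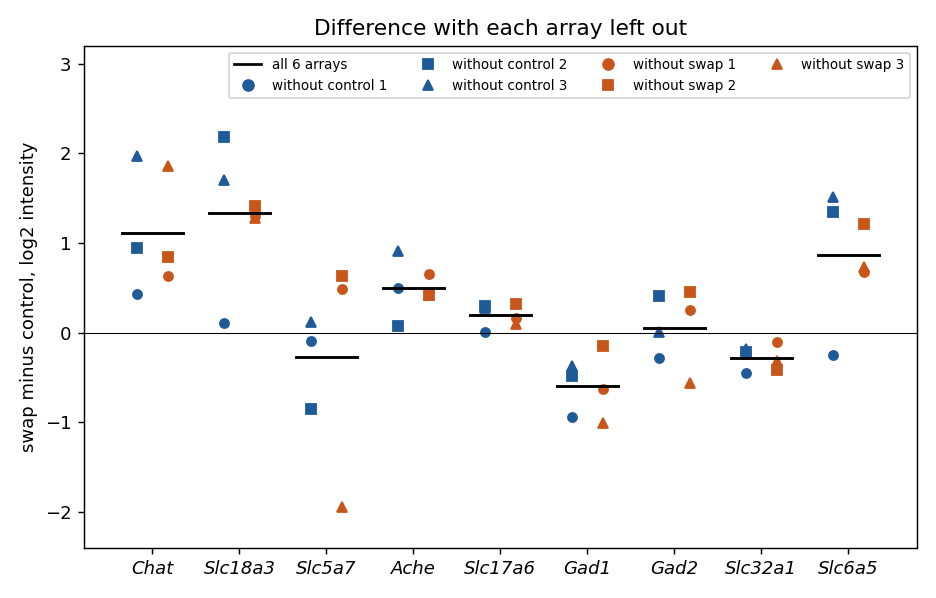
Swap minus control difference of each gene in log2 intensity with all 6 arrays (black bar) and with each array left out in turn (blue, a control array left out; orange, a swap array left out; marker shape, its replicate number). Slc17a6 moves between 0.00 and 0.32 and Slc32a1 between -0.45 and -0.11, while Slc5a7 moves between -1.94 and 0.63 and Slc6a5 between -0.25 and 1.52.

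The arrays of each genotype differed among themselves in these genes. Control array 1 was the lowest of its group for 7 of the 9 genes, and swap array 2 for 6 of the 9, with 5 genes lowest in both. Over all genes control array 1 was the lowest of its group for 38.9% and swap array 2 for 31.8%. Control array 3 was the highest control array for 6 of the 9, and swap array 3 the highest swap array also for 6 of the 9, against 32.3% and 36.6% of all genes. The median deviation of the 9 genes from the mean of their genotype was -0.66 in control array 1 and -0.26 in swap array 2.

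A list of 15 pan-neuronal genes, which neurons of every transmitter type express, showed low values in the same arrays. Of these genes 13 were lowest of the control group in control array 1 and 8 were lowest of the swap group in swap array 2, with median deviations of -0.24 and -0.14. Tubb3, a neuronal tubulin and 1 of the list, was named after its values were seen: it read 12.34, 12.30 and 12.28 across the control arrays and 12.90, 12.24 and 12.35 across the swap arrays. The log2 summed intensity of the list was 16.01 to 16.39 across control arrays and 16.20 to 16.41 across swap arrays, with control array 1 and swap array 2 at the low ends. Its part in the transmitter values was not tested.

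**Figure D4:**
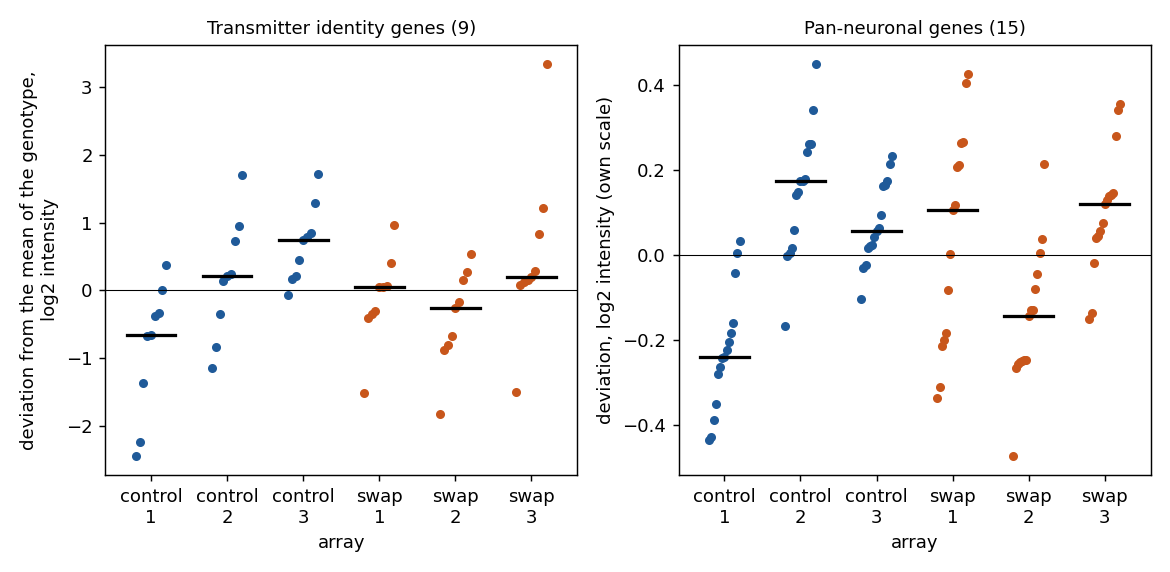
Deviation of each gene from the mean of its genotype, in log2 intensity, by array, for the 9 transmitter genes (left) and the 15 pan-neuronal genes (right, on a narrower scale); points are genes and black bars are medians. The medians are lowest in control array 1 (-0.66 and -0.24) and swap array 2 (-0.26 and -0.14) in both panels.

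The wider transmitter pathways were read from lists that include the 9 genes, and 0 of their members passed the test in either direction. In the acetylcholine list 9 of 9 genes were measured, 6 with a higher and 3 with a lower mean in the swap arrays, and the median difference was 0.28. That median was 0.08 without control array 2 and 0.66 without control array 3. Besides Chat, Slc18a3, Slc5a7 and Ache it held Prima1, which anchors acetylcholinesterase in the membrane, at 0.85 (SE 0.64). The choline transporter Slc44a1 and the choline kinase Chka, general suppliers of choline metabolism, were at high levels, with differences of -0.02 (SE 0.22) and -0.15 (SE 0.28).

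In the glutamate list 12 of 15 genes were measured, 8 higher and 4 lower, with a median difference of 0.07 that lay between 0.0090 and 0.070 with 1 array left out. Slc1a1, a neuronal glutamate uptake transporter, had the smallest p of the list: it read 6.45, 8.01 and 7.87 across the control arrays and 4.45, 5.76 and 6.52 across the swap arrays. Only swap array 3 reached the control range, and the difference was -1.86 (SE 0.68, adjusted p = 1.00 in limma). Glutamine synthetase (Glul) and the glutamine carrier Slc38a1, the genes of the list with the highest means, differed by 0.02 (SE 0.21) and -0.04 (SE 0.20). The glial uptake transporter Slc1a3 differed by -0.32 (SE 0.41).

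In the GABA and glycine list 12 of 13 genes were measured, 5 higher and 7 lower, with a median difference of -0.07. It turned to 0.06 without control array 3 and to 0.13 without swap array 2. Shmt1, a serine hydroxymethyltransferase that makes glycine, was the 1 of the 12 genes (8.33%) whose arrays did not overlap, near the 8.85% of all genes. It read 8.87, 9.14 and 8.98 across the control arrays and 9.35, 9.67 and 9.16 across the swap arrays, differing by 0.40 (SE 0.24, adjusted p = 1.00 in limma). The GABA transporter Slc6a11 differed by 0.58 (SE 0.30), and the GABA-degrading enzyme Aldh5a1 by -0.08 (SE 0.23).

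The monoamine list had 14 of 15 genes measured, with 6 higher, 8 lower and a median of -0.07 that ran from -0.26 to 0.08 with 1 array left out. The arrays did not overlap in 3 of the 14 (21.4%), against 8.85% of all genes, and 0 passed the test. Pnmt, which makes adrenaline and had the smallest p of the list, was lower in every swap array, with a difference of -0.67 (SE 0.24). So was the noradrenaline transporter Slc6a2, named after its values were seen, at -0.46 (SE 0.28). The noradrenaline-making gene Dbh was higher in every swap array. It read 5.17, 7.56 and 6.87 across the control arrays and 8.20, 7.87 and 7.92 across the swap arrays, differing by 1.46 (SE 0.63, adjusted p = 1.00 in limma).

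Transcription factors that direct each transmitter choice gave no call either. The cholinergic and branchiomotor list (14 of 15 measured) had 6 genes higher and 8 lower and a median of -0.06, which ran from -0.31 to 0.07 with 1 array left out, with the motor neuron factor Isl1 at 0.13 (SE 0.21) and Phox2a, a factor of branchiomotor and noradrenergic neurons, at -0.50 (SE 0.31). Isl1 had a log2 intensity of 13.63 to 13.77 in the control and 13.74 to 14.03 in the swap arrays. The glutamatergic list (13 of 14 measured) had 8 genes higher and 5 lower and a median of 0.07, which was -0.09 without control array 1. Its 3 genes with the smallest p pointed both ways. Tlx3, a selector of glutamatergic over GABAergic fate in dorsal interneurons, was at -0.97 (SE 0.37), Neurog1, a proneural factor, at -0.52 (SE 0.26), and Lhx9, a LIM factor of dorsal interneurons, at 0.84 (SE 0.38).

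The GABAergic and glycinergic list (15 of 18 measured) had 5 genes higher and 10 lower and a median of -0.13, which was -0.0017 without swap array 1. In 3 of the 15 (20.0%), Gsx2, Gata2 and Gata3, every swap array was below every control array, against 4.55% of all genes. For either direction the share of all genes was 8.85%, and 0 of the 3 passed the test. The list was chosen with earlier results of these data known. Gsx2 was far below the median level, at 3.19 to 3.87 in the control and 2.09 to 2.67 in the swap arrays. Gata2 and Gata3 are also members of the rhombomere 4 marker list. Gata2, a selector of GABAergic fate, read 12.70, 11.21 and 11.26 across the control arrays and 10.83, 11.10 and 10.88 across the swap arrays, differing by -0.79 (SE 0.46, adjusted p = 1.00 in limma). Its control array 1 was by far the highest, where Gad1 was the lowest of the control group. Lhx1, a LIM factor of inhibitory interneurons, had the pattern nearest to that of Gad1 in this list: 9.98, 11.52 and 11.44 across the control arrays and 11.00, 10.23 and 11.75 across the swap arrays. It was low in control array 1 and swap array 2, as Gad1 was, and its difference was 0.02 (SE 0.59). Of the 15 factors 2, Lhx1 and Tal1, were lowest in both of these arrays.

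The acetylcholine receptors (18 of 21 measured) had 6 genes higher and 12 lower, a median of -0.07 and 0 past the test. Muscarinic Chrm3 and nicotinic Chrna2, both below the median level in all arrays, had the smallest p of the list. Chrna2 read 5.71, 5.33 and 5.97 across the control arrays and 2.21, 2.54 and 3.74 across the swap arrays, differing by -2.84 (SE 0.46, adjusted p = 0.460 in limma). Among nicotinic subunits at or above that level, Chrna3 differed by -0.18 (SE 0.24) and Chrna4 by 0.54 (SE 0.32). Genes of the synaptic vesicle that all transmitters share (14 of 16 measured) had 7 higher and 7 lower and a median of 0.00. The pan-neuronal list had 11 higher, 4 lower and a median of 0.08, which was -0.06 without control array 1.

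For the 4 genes at or above the median level, the genes with the most similar pattern over the 6 arrays were found by the root mean square difference of log2 values after centring, among 10685 genes. The nearest to Slc17a6 was Trappc2l, at 0.048, against a median of 0.349 for all genes searched. Those nearest to Gad1 were Slc29a4, a monoamine transporter, at 0.144 and Casr, the calcium-sensing receptor, at 0.155, against a median of 0.722. Slc29a4 read 8.08, 8.68 and 9.06 across the control arrays and 8.03, 7.39 and 8.75 across the swap arrays, thus lowest in swap array 2 as Gad1 was. For Gad2 the nearest was Sema4f at 0.242, and for Slc32a1 it was Gse1 at 0.036. With 6 arrays and this many genes a close match is common, and it says nothing of shared function.

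The labelled cells were described by their markers, with no unsorted cells to compare them with. Of the rhombomere 4 and facial motor neuron list 8 of 9 genes were measured, and all 8 stood at or above the median level, as did 11168 of all 18193 genes. Their log2 summed intensity was 15.11 to 15.29 across control arrays and 15.00 to 15.38 across swap arrays. Of the 8 genes 3 had a higher and 5 a lower mean in the swap arrays, with a median difference of -0.35 and 0 past the test. In 3 of the 8 (37.5%), Hoxb1, Gata2 and Gata3, every swap array was below every control array, against 4.55% of all genes. For either direction the share of all genes was 8.85%. Hoxb1 itself had a log2 intensity of 12.55 to 12.68 across control arrays and 11.78 to 12.54 across swap arrays. Where in the transcript its probe set lies is unknown here, and its level therefore checks no label. Marker lists of other cells were also read, and without detection calls their sums do not show that such cells were present. The macrophage list (13 of 13 measured) had a log2 summed intensity of 9.99 to 14.25 across control arrays and 11.68 to 12.49 across swap arrays. The branchial mesenchyme list (12 of 12) had 11.72 to 13.35 and 12.09 to 12.84, lowest in control array 1 and swap array 1. The forebrain and midbrain list (11 of 12) stands for regions in which Gad1 and Slc17a6 are also made. Its sums were 10.36 to 10.81 in the control and 10.87 to 11.42 in the swap arrays and did not overlap. In 3 of the 11 genes (27.3%), Otx2, Rax and Lhx2, every swap array was above every control array. The share of all genes was 8.85% for either direction, and 0 of the 11 passed the test. Any part of such cells in the transmitter values was not tested.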

How the data were processed

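Biotin-labelled RNA was hybridized to Affymetrix mouse arrays, per the labels. The deposited values are linear intensities, 1 per probe set and array, made with affy by the authors per the submitters' processing notes; which version, background step and summary were used is not given in the sources used here. Every array had a 2% trimmed mean of 500, medians lay between 118 and 139, and arrays correlated at r = 0.885 to 0.907 over probe sets. The number of arrays limits the precision, and the replicates are separate litters pooled per array, per the series design.

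Here 64 array control probe sets were left out and log2 taken with no offset. Differences were fitted over 45037 probe sets with limma 3.58.1 (lmFit, eBayes; R 4.3.3), two-sided, with Benjamini-Hochberg adjustment and a threshold of 0.05; the script was tested on simulated data. Names came from the platform's table (34945 probe sets with 1 symbol, 932 with several, 9160 with none), and sequences and positions from RefSeq. Marker lists were also kept for endothelium, neural crest and early glia, cranial sensory ganglia, and floor plate and progenitors. The rule for names took all 9 genes, of each list the 3 genes with the smallest p and the 2 with the highest mean (fewer are printed), and up to 3 genes like each gene at or above the median level. Members and lists were chosen with earlier results of these data known, and set tests were not run. The main fit did not pair arrays by replicate number. Deviations from the genotype mean correlated at 0.234, 0.031 and 0.224 between control and swap arrays of the same number (1, 2 and 3). Between arrays of different number they correlated at -0.287 to 0.123. Whether the number stands for a shared batch was not tested. The paralogous Hox protein's gene is not reported here.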

Additional observations from a re-analysis of the deposited data

How the results depend on the processing

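limma called 0 probe sets in all 14 alternatives with probe sets, where 838 to 2375 had an unadjusted p under 0.05. Of 137 other values of the 9 genes 0 passed (smallest adjusted p 0.882). In 26 of them the setting leaves the difference as it was by construction; of the other 111, 94 kept direction and 17 turned, all in differences that had not passed, and the cause was not tested. Without both replicate 1 arrays Chat was at -0.047, Slc17a6 at -0.023, Gad2 at -0.080, Slc6a5 at -0.44 and Slc5a7 at 0.67. An offset of 64 put Slc5a7 at 0.22, array weights put Gad2 at -0.078, and the mean of all probe sets put it at -0.22. The mean of all probe sets put Slc32a1, at -0.28 in the main fit, at -0.61 (SE 0.23, unadjusted p = 0.040 in limma), not past the adjusted test. Slc5a7 without swap array 3 was at -1.94 (SE 0.65, unadjusted p = 0.033 in limma), also not past the adjusted test. Other probe sets put Gad2 at -0.49, Slc32a1 at 0.41 and Slc6a5 at -0.33. With 1 array left out, the values ran from 0.43 to 1.97 for Chat, 0.11 to 2.18 for Slc18a3, -1.94 to 0.63 for Slc5a7, 0.08 to 0.92 for Ache, 0.00 to 0.32 for Slc17a6, -1.01 to -0.15 for Gad1, -0.56 to 0.45 for Gad2, -0.45 to -0.11 for Slc32a1 and -0.25 to 1.52 for Slc6a5. The replicate number as a block moved the count to 2323 probe sets at an unadjusted p under 0.05 and 0 called; in this balanced design it cannot move a difference, only its error (Gad1 at -0.60, adjusted p = 0.965). Of the 190 list medians 18 moved by more than the spread between arrays. The glutamate list was at 0.022 with the mean of all probe sets and ran from 0.0090 to 0.070 with 1 array left out. Over the same omissions the ranges were -0.31 to 0.072 for the cholinergic regulators, -0.36 to -0.0017 for the GABAergic regulators, -0.29 to -0.029 for the acetylcholine receptors, -0.51 to -0.15 for the rhombomere 4 markers, -0.59 to 0.28 for mesenchyme, 0.051 to 0.51 for endothelium and 0.21 to 0.80 for forebrain and midbrain. The filter at the median level leaves out Chat, Slc18a3, Slc5a7, Ache and Slc6a5, which therefore have no value under it. The intervals were widest for Slc5a7, Slc18a3, Chat and Slc6a5, all below the median level.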

Other observations

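Marker lists not described above gave 0 genes past limma's test. The neural crest and early glia list (7 of 9 measured) had a median difference of -0.09, with the glial fatty acid binding protein Fabp7 at 13.14 to 13.33 in the control and 12.91 to 13.36 in the swap arrays. The cranial sensory ganglia list (7 of 10 measured) had a median of -0.04, and the floor plate and progenitor list (10 of 10) a median of -0.03, with the progenitor factor Sox2 at a difference of -0.04 (SE 0.20). Both medians turned with 1 array left out, to 0.06 for the ganglia without control array 2 and to 0.02 for the progenitors without control array 1. The endothelium list (11 of 11) had a median of 0.18 and 2 genes at or above the median level. The macrophage list had a median of 0.44, which was -0.36 without control array 1 and 1.38 without control array 2. The mesenchyme list had a median of -0.19, which was 0.28 without control array 2 and 0.20 without swap array 1. The forebrain and midbrain list had a median of 0.44, which was 0.21 without swap array 3 and 0.80 without control array 2.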
